A study of Mus musculus with 12 samples.

Results

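The GATA and MEF2 genes encode 2 families of DNA-binding transcription factors, and their probes were described here across cultured mouse cells from kidney, heart and bone marrow. All probe entries that the platform annotation assigns to Gata1 to Gata6 and Mef2a to Mef2d were taken, which gave 17 entries under 14 probe identifiers, of 45281 entries under 35746 identifiers on the array. They covered 9 of the 10 genes. Mef2a matched no annotated probe and was not analysed here. Of the 17 entries, 10 passed the filter for detected signal and were tested, and these belonged to 7 genes (Gata2, Gata3, Gata4, Gata6, Mef2b, Mef2c and Mef2d). All entries are accounted for below.

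The samples were kidney-derived cells (4 arrays), heart-derived cells (4 arrays), both described by the submitters as resembling bone marrow mesenchymal stem cells (MSC), and bone marrow MSC themselves (4 arrays). MSC are adherent stromal cells with the capacity to become bone, cartilage or fat cells. The series calls the 4 samples of a tissue biological replicates without saying whether they came from separate animals, so a p-value here refers to the spread among the 12 samples only. No genetic change or treatment is named. The sources used here do not give strain, age, sex, passage or culture conditions.

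GATA factors carry zinc fingers that bind short sequences with the core GATA. Gata1, Gata2 and Gata3 are best known from blood cells, with Gata3 also needed for T cells and for the early kidney duct, and Gata4, Gata5 and Gata6 from heart, gut and other organs that derive from mesoderm and endoderm. MEF2 factors are MADS-box proteins that bind AT-rich sites in muscle, heart, neural and vascular genes. They are held inactive by class IIa histone deacetylases and activated through calcium and MAP kinase signals, and GATA and MEF2 proteins can act together on cardiac genes.

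The genes with the largest differences between tissues among those tested were Mef2c and Gata3, and the 250 bases before their annotated start sites are shown because these windows differ in base composition. They were read from the RefSeq promoter table of mouse build GRCm38.p6, run 5′ to 3′ on the gene's strand, and have each CpG in capitals. The 3 Mef2c windows are chr13:83503784-83504033, chr13:83523406-83523655 and chr13:83573357-83573606, all on the plus strand, and the Gata3 window is chr2:9878601-9878850 on the minus strand.
Mef2c start 1: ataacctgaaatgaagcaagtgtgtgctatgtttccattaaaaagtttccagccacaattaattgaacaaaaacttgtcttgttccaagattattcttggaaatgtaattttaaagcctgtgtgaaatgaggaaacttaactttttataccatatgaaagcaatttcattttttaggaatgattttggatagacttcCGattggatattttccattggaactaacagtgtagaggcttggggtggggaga
Mef2c start 2: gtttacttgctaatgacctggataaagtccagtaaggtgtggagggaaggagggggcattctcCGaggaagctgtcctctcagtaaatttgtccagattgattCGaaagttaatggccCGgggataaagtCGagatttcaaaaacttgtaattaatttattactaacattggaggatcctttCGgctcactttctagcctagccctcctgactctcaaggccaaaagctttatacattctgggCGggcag
Mef2c start 3: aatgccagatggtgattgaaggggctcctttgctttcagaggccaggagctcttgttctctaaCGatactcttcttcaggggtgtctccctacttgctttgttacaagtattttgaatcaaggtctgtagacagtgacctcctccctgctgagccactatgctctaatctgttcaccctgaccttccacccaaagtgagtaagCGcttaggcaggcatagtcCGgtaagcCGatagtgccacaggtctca
Gata3: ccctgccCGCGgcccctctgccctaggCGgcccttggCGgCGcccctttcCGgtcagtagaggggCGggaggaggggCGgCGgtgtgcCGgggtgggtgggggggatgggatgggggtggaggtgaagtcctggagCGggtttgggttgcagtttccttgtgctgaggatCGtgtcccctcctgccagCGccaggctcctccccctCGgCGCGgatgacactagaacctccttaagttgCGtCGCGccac
The Mef2c windows hold 1, 6 and 4 CpGs at GC contents of 33.6%, 44.8% and 49.6%. The Gata3 window holds 19 CpGs at a GC content of 70%. Over all 32851 windows of this length in the table the median was 6 CpGs, with quartiles of 2 and 16, and the median GC content was 52.4%. For Gata4 and Gata6 no window was examined, and whether the table holds one is not stated here. The 11 windows examined belong to the other 8 of the 10 genes. On both strands they were searched for a GATA motif (the core GATA with A or T before it and A or G after it) and for a MEF2 motif (CTA, then any 4 bases, then TAG). Of the 11 windows 0 held either, against 26.5% of all windows for the GATA motif and 3.2% for the MEF2 motif. These letters are not in these windows, which says nothing on binding by the factors.

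Across the 12 arrays 18635 to 19792 entries were detected, and mean raw intensity ran between 753.7, on bone marrow replicate 1, and 1066. Each of 11 measured MSC marker genes was detected, with all 4 arrays positive for 10 genes in kidney cells, 11 in heart cells and 10 in bone marrow cells. Of 10 measured heart muscle markers 0 passed the detection filter, and Myh6, Actc1, Myl7, Pln and Nkx2-5 were detected on 0 arrays. Of 12 renal epithelial markers 6 were detected on any array, while Epcam, Krt18, Pax2, Pax8, Aqp2 and Calb1 were on 0. On their brightest entries, Aqp1, Slc12a1, Cdh1 and Krt8 were detected on all 4 kidney arrays and all 4 bone marrow arrays, and on 4, 1, 3 and 4 heart arrays in that order. Another Slc12a1 entry was detected on 3 heart arrays. In such bulk samples, fewer cells of a type and less RNA per cell cannot be told apart.

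Detection came first, since it decides which entries carry a measured level. An entry was called detected on an array when its detection fraction, the file's measure of how far a signal lies above the negative control probes, exceeded 0.95. By this measure detection on all 4 arrays of a tissue held for 9 of the 17 entries in kidney cells, 6 in heart cells and 4 in bone marrow cells. At a stricter fraction of 0.99 the numbers were 5, 6 and 3. The plot of detection by entry shows that Gata2, the brighter Gata6 entry and the brighter Mef2b entry were the 3 detected on all 12 arrays.

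**Figure D1:**
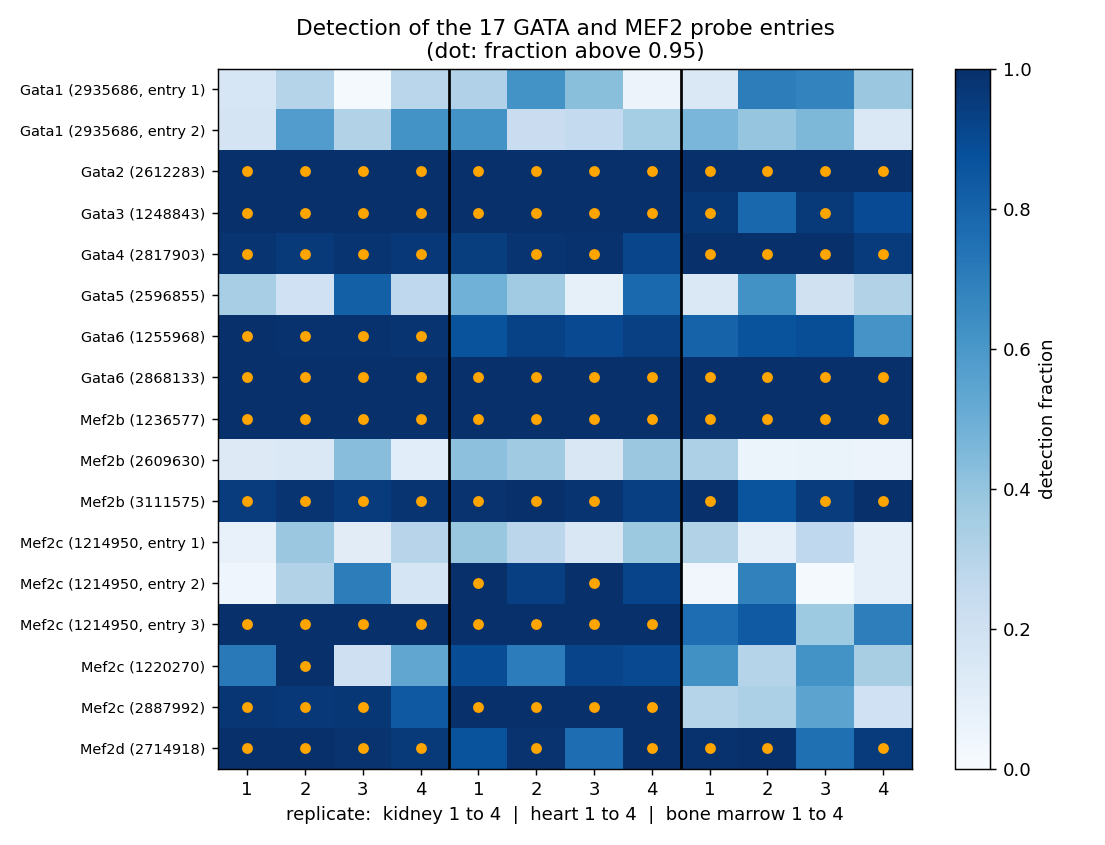
Detection fraction (colour scale, 0 to 1) of the 17 GATA and MEF2 probe entries, 1 row per entry, on the 4 kidney, 4 heart and 4 bone marrow arrays, 1 column per array, with a dot where it exceeds 0.95. The Gata1 and Gata5 rows have no dot, and both tested Mef2c entries have dots on kidney and heart arrays and none on bone marrow arrays.

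Gata1, which directs red cell and megakaryocyte development, had 2 entries under 1 identifier (ILMN_2935686), and both were undetected on all 12 arrays, with raw intensities of 94.9 to 133.4. Gata5 (ILMN_2596855), a factor of the developing heart and gut, was also undetected on all 12 arrays, at 101 to 142.4. Among the other entries that failed the filter, the Mef2b entry ILMN_2609630 was undetected throughout, at raw intensities of 100.3 to 123.5. One Mef2c entry under ILMN_1214950 was undetected on all 12 arrays, at 101.5 to 122.2. Another entry under that identifier had 99, 116.5, 133.2 and 112.5 in kidney cells, 184.8, 157.9, 183.2 and 157.1 in heart cells and 96.2, 127.7, 95.1 and 109.4 in bone marrow cells. Its heart arrays were the highest, and 2 of them were the only arrays on which it was detected. The Mef2c entry ILMN_1220270 was detected on 1 kidney array only, replicate 2, at a raw intensity of 183.

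Changes below are differences in normalized log2 intensity ± SE from limma, fitted to all 20649 entries that passed the filter, and a call is a Benjamini-Hochberg adjusted p under 0.05 over those entries. In heart cells 5 of the 10 tested GATA and MEF2 entries were higher than in bone marrow cells and 1 was lower. Of all entries tested in that comparison, 23.6% were higher and 28% lower, 51.6% in all. In kidney cells 5 of 10 were higher than in bone marrow cells and 0 lower, and 6 had an unadjusted p under 0.05. Of all entries 18.4% were higher and 20.8% lower there, 39.2% in all. Between kidney and heart cells 3 of 10 were higher in kidney and 4 lower, against 23.3% higher and 20.4% lower of all entries, 43.8% in all. A test for any difference among the 3 tissues called 7 of 10 entries, and 62.9% of all entries. One of the 10, the Gata6 entry ILMN_1255968, was detected in kidney cells alone and passed the filter only through them, where it is highest. Without it the counts were 5 of 9 higher and 1 lower in heart against bone marrow cells, 4 of 9 higher in kidney against bone marrow cells, 2 of 9 higher and 4 lower in kidney against heart cells, and 6 of 9 for any difference. These counts still hold the Mef2c entry ILMN_2887992, detected on 3 kidney, 4 heart and 0 bone marrow arrays. That entry needed its heart arrays, where it is highest, to pass the filter. With this many entries called across the array, the number of members called near or above that share is not read as a property of the 2 families. Mef2c, Gata6 and Mef2b each have 2 tested entries that report on 1 gene, and both comparisons with bone marrow share the same 4 bone marrow arrays.

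**Figure D2:**
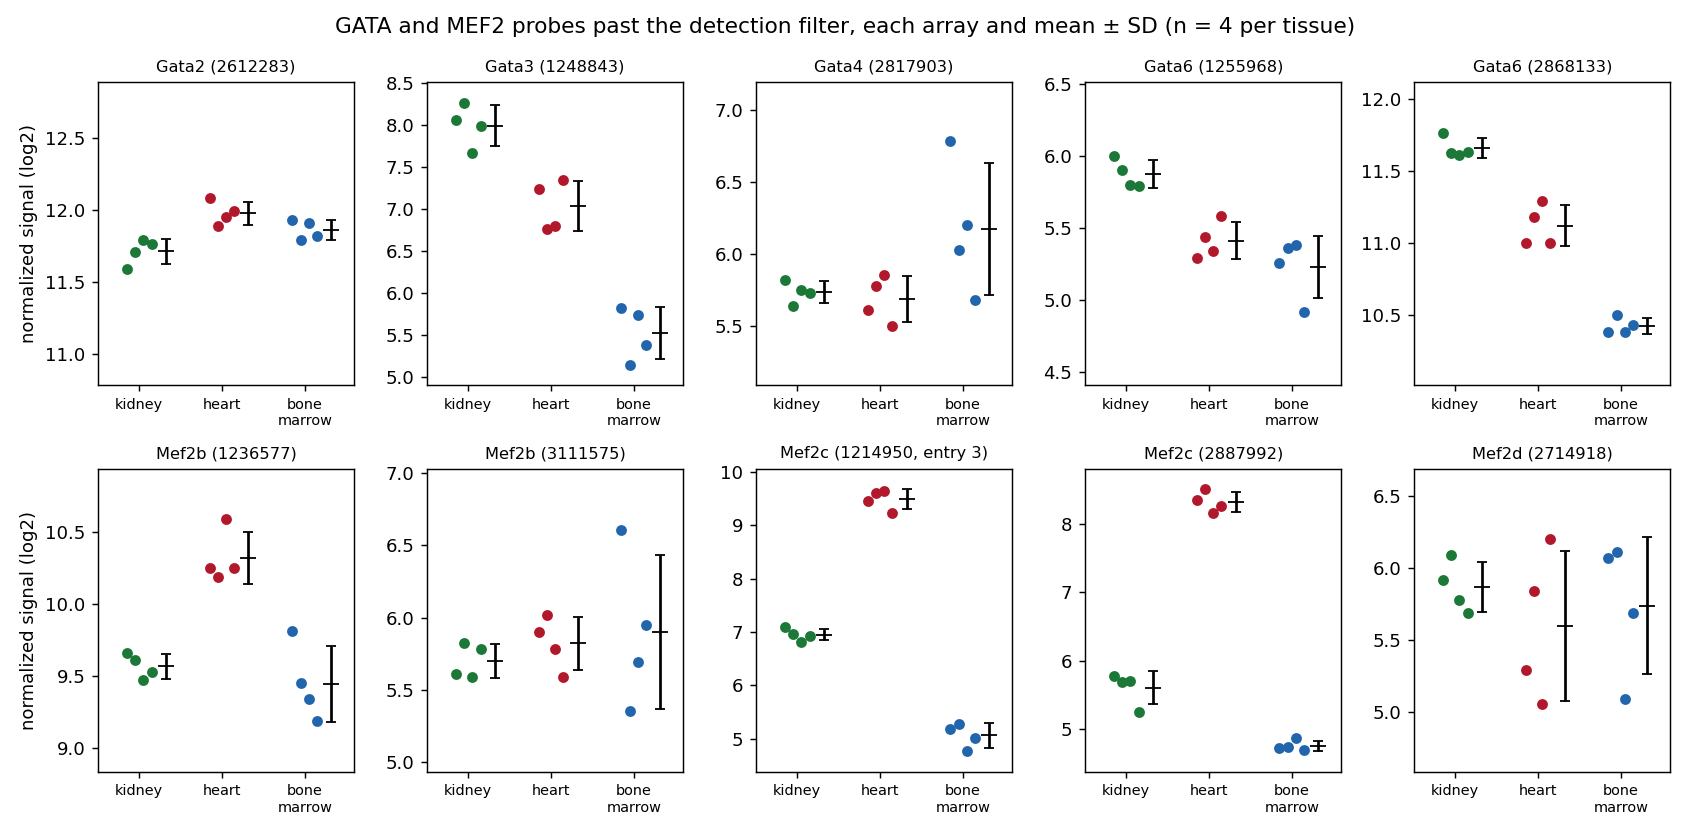
Normalized log2 intensity of the tested GATA and MEF2 entries on each of the 12 arrays, with kidney, heart and bone marrow in that order within each panel, 1 point per array and bars for the mean ± SD of 4 arrays. Each panel has its own scale, which does not start at 0. Mef2c points of the 3 tissues lie apart, with heart highest, and Gata3 and the brighter Gata6 entry have kidney above heart above bone marrow.

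Mef2c, a factor needed for heart looping, vascular and muscle development, showed the largest differences among the tested entries. Its brightest entry is the third of those under ILMN_1214950, and which physical probe each of these entries stands for could not be settled. Judged by the nearest match to the raw values, the authors' deposited table of processed values appears to hold the first, undetected entry under that identifier and not this one. The third entry had raw intensities of 251.2, 242.8, 237.1 and 245.5 in kidney cells. In heart cells it had 809.8, 863.7, 944 and 811.4, and in bone marrow cells 127.8, 138.8, 113.7 and 134.5. The 3 tissues did not overlap, and the entry was detected on every kidney and heart array and on 0 bone marrow arrays. Normalized log2 intensity averaged 6.95 ± 0.11 in kidney, 9.49 ± 0.19 in heart and 5.06 ± 0.23 in bone marrow cells (SD, n = 4 each). Because bone marrow cells gave only an upper limit, the Mef2c signal in heart cells exceeded that in bone marrow cells at least 14.2-fold (adjusted p = 1.14e-15). The signal in kidney cells exceeded that in bone marrow cells at least 2.45-fold (adjusted p = 1.88e-09). Such a bound sets the mean of the bright tissue against, for each array of the dim tissue, its lowest detected signal or the entry's own signal, whichever was higher. Kidney cells were lower than heart cells by a log2 difference of -2.53 ± 0.15 (adjusted p = 1.42e-11), a ratio of 0.173. Without background correction the fitted log2 differences were smaller, at 2.63 for heart minus bone marrow, 0.81 for kidney minus bone marrow and -1.83 for kidney minus heart, with the same calls. The long non-coding genes Gm52043 and Gm52044 overlap Mef2c in the RefSeq gene table. Non-coding genes also overlap Gata2 (Gm38708), Gata3 (4930412O13Rik and 9230102O04Rik), Gata6 (Gata6os) and Mef2d (1700113A16Rik), and without probe positions their part in these signals was not tested.

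A second Mef2c entry, ILMN_2887992, whose identifier occurs once in the raw table, gave the same order. It was detected on 3 kidney, 4 heart and 0 bone marrow arrays, and without its heart arrays it would have failed the filter. Its higher heart signal is therefore no support for that of the first entry. Its raw intensities were 164.8, 164.7, 166.9 and 148 in kidney cells, 436.2, 472.5, 416.2 and 469.2 in heart cells, and 110.1, 113.8, 119.1 and 115.2 in bone marrow cells. Heart cells again stood apart from the other tissues, while 1 kidney array was undetected and the kidney signals lay near the detection limit. Heart cells were at least 6.33-fold higher than bone marrow cells (adjusted p = 1.34e-13). Kidney minus heart was -2.72 ± 0.16 (adjusted p = 1.82e-11), a ratio of 0.152. Kidney cells were also called higher than bone marrow cells (adjusted p = 0.000244), but the bound on that difference did not exceed 1, so no fold is given. Without background correction the fitted differences of this entry were 1.88 for heart minus bone marrow, 0.42 for kidney minus bone marrow and -1.46 for kidney minus heart. Of all pairs of entries that share an identifier and were both called in heart against bone marrow, 2394 of 2415 (99.1%) went the same way. For entries of 1 gene under different identifiers the number was 1488 of 1588 (93.7%).

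**Figure D3:**
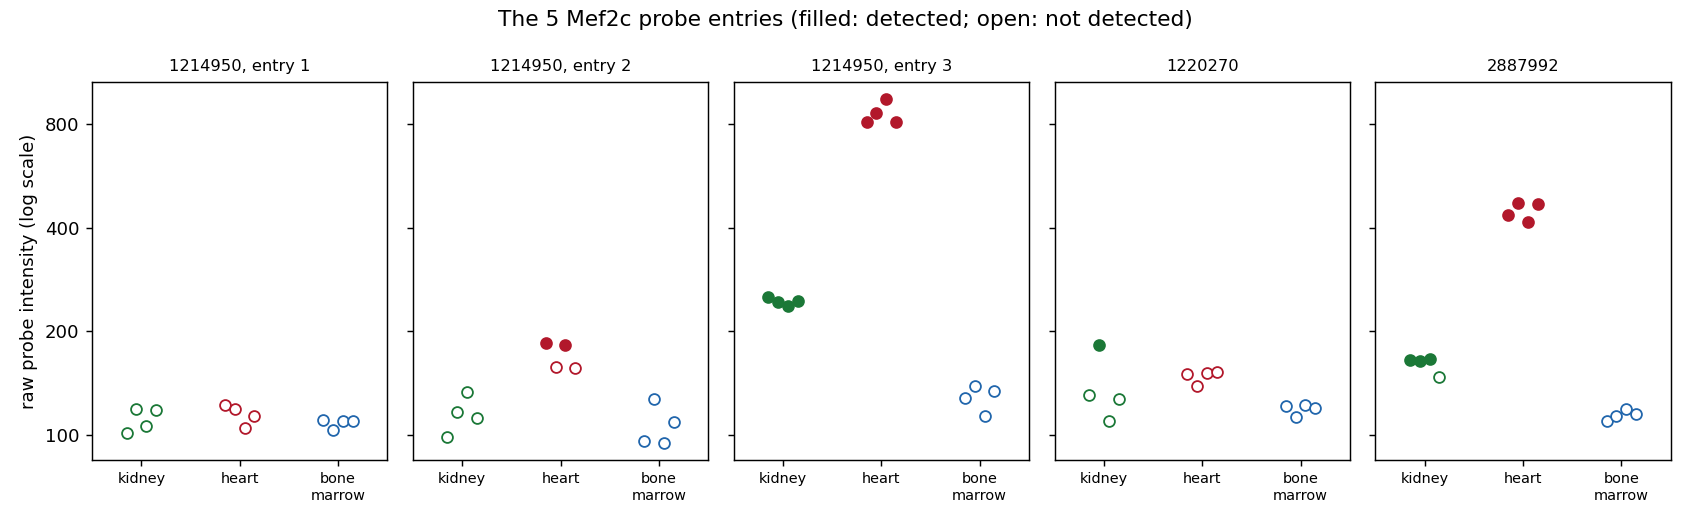
Raw, non-normalized intensity of the 5 Mef2c entries on each array, with kidney, heart and bone marrow in that order, 1 point per array and filled points for detected signals. Both tested entries are highest on the 4 heart arrays, and the other 3 entries are detected on few or no arrays.

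Gata3, a factor of T cells and of the embryonic kidney duct, had log2 intensities of 8.06, 8.27, 7.67 and 7.99 in kidney cells. It had 7.24, 6.77, 6.8 and 7.35 in heart cells and 5.83, 5.15, 5.74 and 5.39 in bone marrow cells. The tissues did not overlap, with kidney highest and bone marrow lowest, and Gata3 (ILMN_1248843) was detected on 4 kidney, 4 heart and 2 bone marrow arrays. Kidney cells averaged 8 ± 0.25, heart cells 7.04 ± 0.30 and bone marrow cells 5.53 ± 0.31 (SD, n = 4 each). Heart minus bone marrow was 1.51 ± 0.19 (adjusted p = 7.42e-07), a 2.85-fold difference. Kidney minus bone marrow was 2.47 ± 0.19 (adjusted p = 9.78e-10), a 5.54-fold difference. Kidney minus heart was 0.96 ± 0.19 (adjusted p = 0.00025), a 1.94-fold difference. The sizes rest on a dim signal: without background correction they were 0.66, 1.25 and 0.60 on the log2 scale for the same comparisons in that order, all called. Of 7 measured T cell markers, 3 were detected on any array, and Cd3g, Cd8a, Cd2 and Cd5 on 0. Cd3e, a T cell receptor chain gene, was detected on all 12 arrays in the same tissue order as Gata3, with mean log2 intensities of 8.31 in kidney, 7.18 in heart and 6.62 in bone marrow cells. Its kidney minus bone marrow difference was 1.69 ± 0.15 (adjusted p = 1.37e-08). Thy1, which MSC also carry, was detected on all 12 arrays and was highest in heart cells, at 12.16 in kidney, 14.79 in heart and 12.93 in bone marrow cells. The level of a list is here the mean over its tested genes only, which for the T cell list are 2, Cd3e and Thy1. The T cell list had a mean log2 level of 10.16 to 10.3 on kidney arrays, 10.89 to 11.05 on heart arrays and 9.66 to 9.87 on bone marrow arrays. The renal epithelial list, over its 4 tested genes, had a mean log2 level of 7.34 to 7.53 on kidney arrays, 7.45 to 7.79 on heart arrays and 6.52 to 7.16 on bone marrow arrays. Its member Aqp1, a water channel, averaged 10.65 in kidney, 12.93 in heart and 7.59 in bone marrow cells. The part of either list in the Gata3 result was not tested.

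Gata6, which acts in heart, gut and vascular smooth muscle, was bright in all 3 tissues on the entry ILMN_2868133. Its log2 intensities were 11.76, 11.62, 11.61 and 11.63 in kidney cells, 11, 11.18, 11.29 and 11 in heart cells, and 10.38, 10.5, 10.38 and 10.43 in bone marrow cells. Kidney arrays lay highest, heart arrays between and bone marrow arrays lowest, without overlap. Heart minus bone marrow was 0.69 ± 0.08 (adjusted p = 3.61e-07), a 1.62-fold difference. Kidney minus bone marrow was 1.23 ± 0.08 (adjusted p = 1.14e-10), a 2.35-fold difference. Kidney minus heart was 0.54 ± 0.08 (adjusted p = 1.51e-05), a 1.45-fold difference. The second Gata6 entry, ILMN_1255968, was near the detection limit, with detection on 4 kidney arrays and on 0 heart and 0 bone marrow arrays. Its log2 intensities were 6, 5.9, 5.8 and 5.79 in kidney cells, 5.29, 5.44, 5.34 and 5.58 in heart cells, and 5.26, 5.36, 5.38 and 4.92 in bone marrow cells. The kidney arrays were above all others, and heart and bone marrow arrays overlapped. Since the entry passed the filter through kidney cells alone, it had to be higher there, and its calls are no support for those of the brighter entry. In kidney cells it was at least 1.16-fold higher than in bone marrow cells (adjusted p = 0.006). In kidney cells it was at least 1.2-fold higher than in heart cells (adjusted p = 0.0392), a call lost when any 1 of 7 arrays was left out (the 4 kidney arrays and heart replicates 1, 2 and 3, adjusted p between 0.0518 and 0.0933). In heart against bone marrow cells the entry was undetected on both sides.

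Some markers of other cells differed between tissues as well. The mean log2 level of the endothelial list, over its 3 tested genes, was 7.39 to 7.58 on kidney arrays, 6.48 to 6.78 on heart arrays and 6.38 to 6.6 on bone marrow arrays. Of the 10 genes on it 7 were detected on any array. Kdr, Vwf and Sox18 were detected on 0 arrays. Of 3 tested endothelial genes 1 was higher and 1 lower in kidney than in bone marrow cells (median -0.54, or -0.06 with undetected genes at their bound). The surface gene Emcn, detected in kidney cells alone, was at least 7.96-fold higher (adjusted p = 1.65e-14). As Emcn passed the filter through kidney cells alone, it had to be highest there, and its call is not read as support. The secreted factor gene Egfl7 was lower (-0.61 ± 0.1, adjusted p = 7.56e-05), and the receptor gene Tek was not called and was detected on 0 kidney, 3 heart and 2 bone marrow arrays. Egfl7 averaged 8.65 in kidney, 9.4 in heart and 9.26 in bone marrow cells, and Tek 5.11, 6.07 and 5.65 in that order. Both were lowest in kidney cells, so the higher list level there came from Emcn (8.65, 4.64 and 4.66). That level is not read as support either. The mesothelial and epicardial list, over its 5 tested genes, was at 6.51 to 6.9 on kidney arrays, 6.55 to 6.79 on heart arrays and 5.44 to 5.57 on bone marrow arrays. Its gene Tcf21, detected on 0 kidney, 4 heart and 0 bone marrow arrays, averaged 5.27, 8.36 and 4.99 in that order. Tcf21 passed the filter through heart cells alone, so its part in the heart level is not read as support. Against bone marrow cells Upk1b and Aldh1a2 were called higher in both tissues, and Tbx18 and Krt19 in neither. Msln and Lrrn4 were detected on 0 arrays. The skeletal muscle list, over its 3 tested genes, was at 9.29 to 9.47 on kidney arrays, 8.79 to 8.95 on heart arrays and 6.11 to 6.33 on bone marrow arrays. Of its 7 measured genes 3 were detected on any array, and Myod1, Ckm, Tnnt3 and Pax7 on 0, and its gene Des is also among the genes linked to MEF2. Its member Acta1, an actin gene of muscle, was higher in heart (4.79 ± 0.12, adjusted p = 1.73e-17) and in kidney (3.9 ± 0.12, adjusted p = 7.09e-16) than in bone marrow cells. The macrophage list, over its 4 tested genes, was at 6.59 to 6.83 on kidney arrays, 7.28 to 7.53 on heart arrays and 6.86 to 7.31 on bone marrow arrays. Of its 11 measured genes 5 were detected on any array, and Adgre1, Itgam, Tyrobp, Fcer1g, C1qb and C1qc on 0. In heart against bone marrow cells Csf1r (0.77 ± 0.2, adjusted p = 0.00307) and Lyz2 (0.67 ± 0.18, adjusted p = 0.00411) were higher and Cd14 was lower (-0.35 ± 0.12, adjusted p = 0.0174). The part of these cells in the Gata3, Gata6 and Mef2c results was not tested.

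Gata2, a factor of blood progenitors, endothelium and mesenchymal precursors, was detected on all 12 arrays (ILMN_2612283). Its log2 intensities were 11.59, 11.71, 11.79 and 11.76 in kidney cells, 12.08, 11.89, 11.95 and 11.99 in heart cells, and 11.93, 11.79, 11.91 and 11.82 in bone marrow cells. The tissues lay within a narrow band, and the kidney and heart arrays did not overlap. Kidney minus heart was -0.26 ± 0.07 (adjusted p = 0.0052), a ratio of 0.832, and it missed the threshold when arrays were scaled to a common median (-0.22, adjusted p = 0.0532). Heart minus bone marrow was 0.12 ± 0.07 (adjusted p = 0.197, 95% interval -0.04 to 0.27), and kidney minus bone marrow was -0.15 ± 0.07 (adjusted p = 0.113). Of 11 mast cell and progenitor markers 5 were detected on any array, 0 of them on all 4 arrays of a tissue, and Kit, Cpa3, Tpsb2, Mcpt4, Tal1 and Ptprc on 0 arrays. Cd34 was detected on 1 kidney, 2 heart and 1 bone marrow arrays. The list, over its 2 tested genes, was at a mean log2 level of 5.26 to 5.77 on kidney arrays, 5.23 to 5.91 on heart arrays and 5.17 to 5.81 on bone marrow arrays.

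Gata4, a partner of Gata6 in the heart, was close to the detection limit (ILMN_2817903), with detection on 4 kidney, 2 heart and 4 bone marrow arrays. Its log2 intensities were 5.82, 5.64, 5.75 and 5.73 in kidney cells, 5.61, 5.78, 5.85 and 5.5 in heart cells, and 6.78, 6.03, 6.2 and 5.68 in bone marrow cells. The groups overlapped, and bone marrow replicate 1 was the highest array. Heart minus bone marrow passed the threshold (-0.49 ± 0.2, adjusted p = 0.0484), but 11 of the 12 leave-one-out fits, all except that without bone marrow replicate 4, lost the call (adjusted p between 0.00967 and 0.228 over all alternatives), and without bone marrow replicate 1 the difference was -0.28 (adjusted p = 0.228). Kidney minus bone marrow was -0.44 ± 0.2 (adjusted p = 0.0911), and without bone marrow replicate 4 it was -0.6 (adjusted p = 0.0217). Kidney minus heart was 0.05 ± 0.2 (adjusted p = 0.874).

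Mef2b, a factor best known from germinal centre B cells, was higher in heart cells on the entry ILMN_1236577. Its log2 intensities were 9.66, 9.61, 9.47 and 9.53 in kidney cells, 10.25, 10.19, 10.59 and 10.25 in heart cells, and 9.81, 9.45, 9.34 and 9.19 in bone marrow cells. All heart arrays were above all others, while kidney and bone marrow arrays overlapped. Heart minus bone marrow was 0.87 ± 0.12 (adjusted p = 2.94e-06), a 1.83-fold difference, and kidney minus heart was -0.75 ± 0.12 (adjusted p = 2.55e-05), a ratio of 0.593. Kidney minus bone marrow was 0.12 ± 0.12 (adjusted p = 0.46). The protein-coding gene Gm45929, whose listed synonym joins the names of 2310045N01Rik and Mef2b, overlaps Mef2b in the RefSeq gene table, and without probe positions their signals cannot be told apart here. The dimmer entry ILMN_3111575, detected on 4 kidney, 3 heart and 3 bone marrow arrays, was called in none of the comparisons. It had log2 intensities of 5.61, 5.82, 5.59 and 5.78 in kidney cells, 5.9, 6.02, 5.78 and 5.59 in heart cells, and 6.61, 5.35, 5.69 and 5.95 in bone marrow cells, so that the tissues overlapped. Kidney minus heart was -0.12 ± 0.22 (adjusted p = 0.685), and heart minus bone marrow was -0.08 ± 0.22 (adjusted p = 0.797).

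Mef2d, which is broadly expressed and prominent in muscle and neurons, was called in none of the comparisons (ILMN_2714918). Its log2 intensities were 5.92, 6.09, 5.78 and 5.69 in kidney cells, 5.29, 5.84, 5.06 and 6.2 in heart cells, and 6.07, 6.11, 5.09 and 5.69 in bone marrow cells. The tissues overlapped, and heart and bone marrow arrays were more spread than kidney arrays. Its mean log2 intensity was 5.87 ± 0.17 in kidney, 5.60 ± 0.52 in heart and 5.74 ± 0.48 in bone marrow cells (SD, n = 4 each), near the detection limit, with detection on 4, 2 and 3 arrays. The intervals (95%) were -0.66 to 0.38 for heart minus bone marrow, -0.39 to 0.65 for kidney minus bone marrow and -0.25 to 0.79 for kidney minus heart, and each covers 0.

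**Figure D4:**
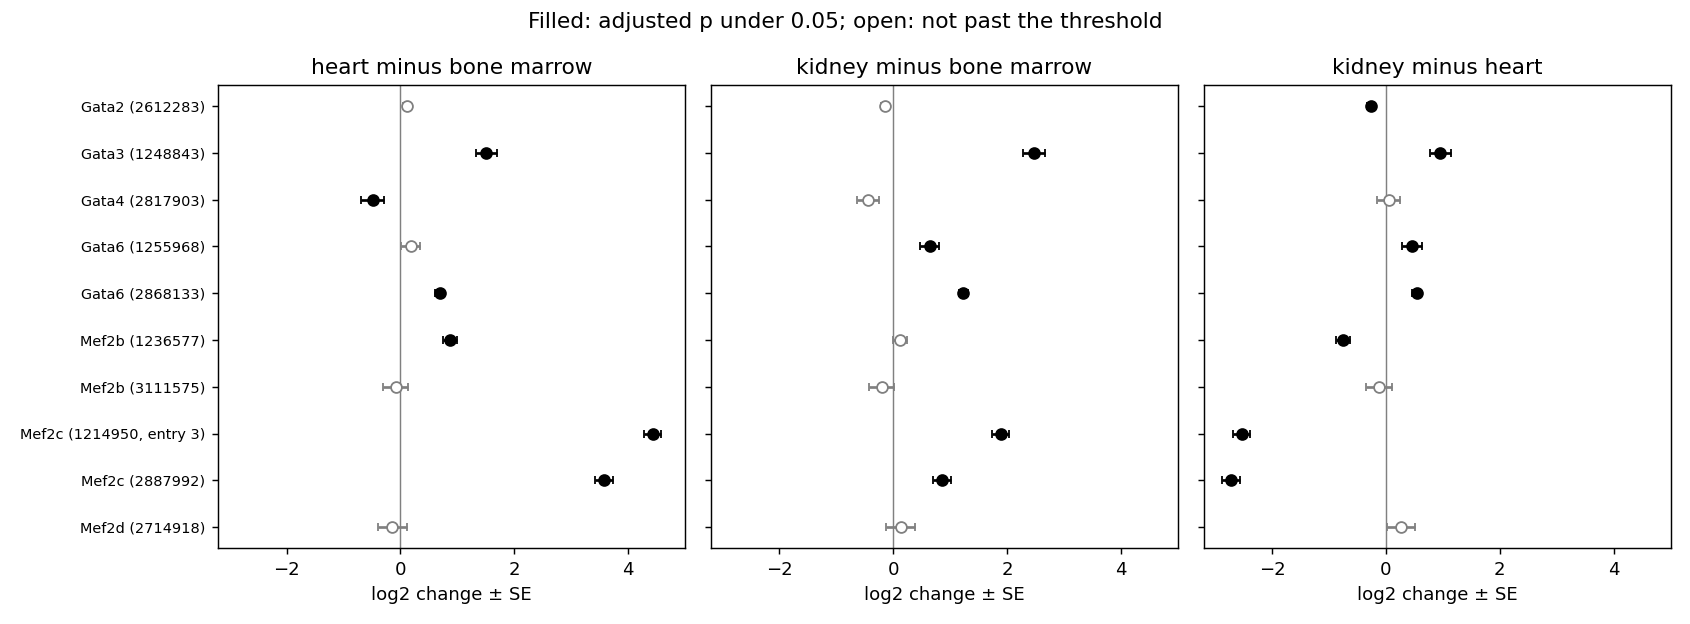
Log2 difference in normalized intensity of each tested GATA and MEF2 entry in the 3 comparisons, with points at the limma estimate, bars for ± SE and filled points for calls at an adjusted p under 0.05. Mef2c lies furthest to the right in heart minus bone marrow, and its kidney minus heart values lie below 0, as do those of the brighter Mef2b entry and Gata2. Where a tissue was undetected the point is the fitted value, not the bound.

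Other genes on 8 lists, drawn up from known partners and linked genes of both families, were counted with 1 probe per gene. Among all 10797 named genes, 26.2% were higher and 29.4% lower in heart than in bone marrow cells, with a median log2 difference of -0.03. In kidney against bone marrow cells 19.6% were higher and 23.8% lower (median -0.04), and in kidney against heart cells 24.5% were higher and 23.9% lower (median 0.02).

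Of 10 tested GATA cofactors and zinc finger relatives, 2 were higher and 4 lower in heart than in bone marrow cells (median -0.02), and 1 was higher and 3 lower in kidney than in bone marrow cells (median -0.2). Between kidney and heart cells 1 was higher and 2 were lower in kidney (median 0.05). Zfpm2, the FOG2 corepressor that binds GATA factors, was higher in heart (1.52 ± 0.08, adjusted p = 3.13e-12) and in kidney (2.08 ± 0.08, adjusted p = 3.25e-14) than in bone marrow cells. Trps1, an atypical GATA-type repressor, was lower in kidney than in bone marrow cells (-1.75 ± 0.14, adjusted p = 1.88e-09). The blood GATA partners Tal1, Lyl1, Lmo1 and Lmo2 were detected on 0 arrays.

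Of 8 tested MEF2 repressors, 2 were higher and 2 lower in heart than in bone marrow cells (median -0.02), and 1 was higher and 3 lower in kidney than in bone marrow cells (median -0.12). Between kidney and heart cells 1 was higher and 2 were lower in kidney (median -0.13). The class IIa deacetylase Hdac9 was detected on 4 heart arrays and on 0 kidney and 0 bone marrow arrays. In heart cells it was at least 5.81-fold higher than in bone marrow cells (adjusted p = 1.77e-13), and kidney cells were at least 6.08-fold lower than heart cells (adjusted p = 9.71e-13). Hdac9 passed the filter through heart cells alone, so it had to be highest there, and its calls are not read as support. Hdac5, of the same class, was higher in heart than in bone marrow cells (1.14 ± 0.11, adjusted p = 1.07e-08), and lower in kidney than in heart cells (-1.51 ± 0.11, adjusted p = 2.14e-10). Hdac4 (-0.05 ± 0.14) and Hdac7 (0.01 ± 0.1) were not called in heart against bone marrow cells.

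Of 16 tested MEF2-activating kinases, phosphatases and coactivators, 5 were higher and 2 lower in heart than in bone marrow cells (median 0.14), 7 higher and 1 lower in kidney than in bone marrow cells (median 0.13), and 8 higher and 4 lower in kidney than in heart cells (median 0.09). Map2k6, a kinase that activates p38, was lower in heart (-1.99 ± 0.18, adjusted p = 7.83e-09) and in kidney (-1.42 ± 0.18, adjusted p = 1.85e-06) than in bone marrow cells. The Map2k6 entry used was detected on 4 kidney, 1 heart and 4 bone marrow arrays, so the heart value lies about the detection limit and the size of that difference is uncertain. Another Map2k6 entry was detected on 2 heart arrays. Myocd, the coactivator of serum response factor, was higher in kidney than in bone marrow cells (1.47 ± 0.2, adjusted p = 4.04e-06), with detection on 4 kidney, 1 heart and 1 bone marrow arrays. Without its kidney arrays, where it is highest, Myocd would have failed the filter, so its call is not read as support. Prkd1, a kinase that exports class IIa deacetylases from the nucleus, was higher in heart than in bone marrow cells (1.02 ± 0.15, adjusted p = 5.12e-06).

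Of 6 tested cardiac partner factors, 4 were higher and 1 lower in heart than in bone marrow cells (median 0.55), 3 were higher and 1 lower in kidney than in bone marrow cells (median 0.05, or 0.16 with undetected genes at their bound), and 2 were higher and 2 lower in kidney than in heart cells (median -0.1). Isl1, a marker of cardiac progenitors, was detected on 4 heart arrays and on 0 others, and was at least 8.23-fold higher in heart than in bone marrow cells (adjusted p = 5.38e-14). As Isl1 passed the filter through heart cells alone, it had to be highest there, and its call is not read as support. Tbx5, a T-box factor, had 0.73 ± 0.2 for heart minus bone marrow (adjusted p = 0.00419), with detection on 0 kidney, 4 heart and 1 bone marrow arrays. Without its heart arrays Tbx5 would also have failed the filter, and its call is not read as support either. Both Isl1 and Tbx5 are among the 4 factors counted as higher in heart than in bone marrow cells. Nfatc1, a calcineurin-dependent factor, was lower in heart than in bone marrow cells (-1.54 ± 0.11, adjusted p = 2.56e-10). Nkx2-5, Tbx20, Hand1 and Hand2 were detected on 0 arrays. Of the myogenic MEF2 partners, Myog alone was tested and was not called, while Myod1, Myf5 and Myf6 were detected on 0 arrays.

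Of 10 tested genes linked to Gata4 or Gata6 in other settings, 8 were higher and 1 lower in heart than in bone marrow cells (median 0.79), 7 were higher and 0 lower in kidney than in bone marrow cells (median 1.47), and 4 were higher and 4 lower in kidney than in heart cells (median -0.14). Nppb, the natriuretic peptide B gene, was higher in heart (1.23 ± 0.22, adjusted p = 8.54e-05) and in kidney (4.44 ± 0.22, adjusted p = 1.33e-12) than in bone marrow cells, where it was detected on 2 of 4 arrays. Slc8a1, the sodium-calcium exchanger, was higher in heart (2.46 ± 0.12, adjusted p = 5.71e-13) than in bone marrow cells. Bmp4, a secreted growth factor, was at least 8.16-fold higher in kidney than in bone marrow cells (adjusted p = 4.19e-14). Wnt2, counted as higher in kidney cells, was detected on 4 kidney, 0 heart and 3 bone marrow arrays and needed its kidney arrays to pass the filter. Myh6, Star, Amh and Wnt7b, of the same list, were detected on 0 arrays.

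Of 7 tested genes linked to MEF2, out of 18 with a probe, 4 were higher and 0 lower in heart than in bone marrow cells (median 0.95), 5 were higher and 0 lower in kidney than in bone marrow cells (median 0.95), and 2 were higher and 2 lower in kidney than in heart cells (median 0.08). Des, the muscle intermediate filament desmin, was at least 27.3-fold higher in kidney and at least 4.41-fold higher in heart than in bone marrow cells (adjusted p = 4.48e-18 and 1.47e-13). Klf4, an early response factor, was higher in heart (1.68 ± 0.11, adjusted p = 7.72e-11) and in kidney (1.13 ± 0.11, adjusted p = 6.34e-08) than in bone marrow cells. Myom1, a sarcomere protein gene, was higher in kidney than in bone marrow cells (2.67 ± 0.18, adjusted p = 1.11e-10) and was not called in heart (0.38 ± 0.18, adjusted p = 0.081). Jun was not called in either comparison. Hdac9 is also in the repressor list and passed the filter through heart cells alone. Of 4 tested genes linked to Gata1 or Gata2, 1 was higher in each comparison, and this was Edn1, also in the Gata4 and Gata6 list, with kidney minus bone marrow at 1.97 ± 0.15 (adjusted p = 8.99e-10).

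**Figure D5:**
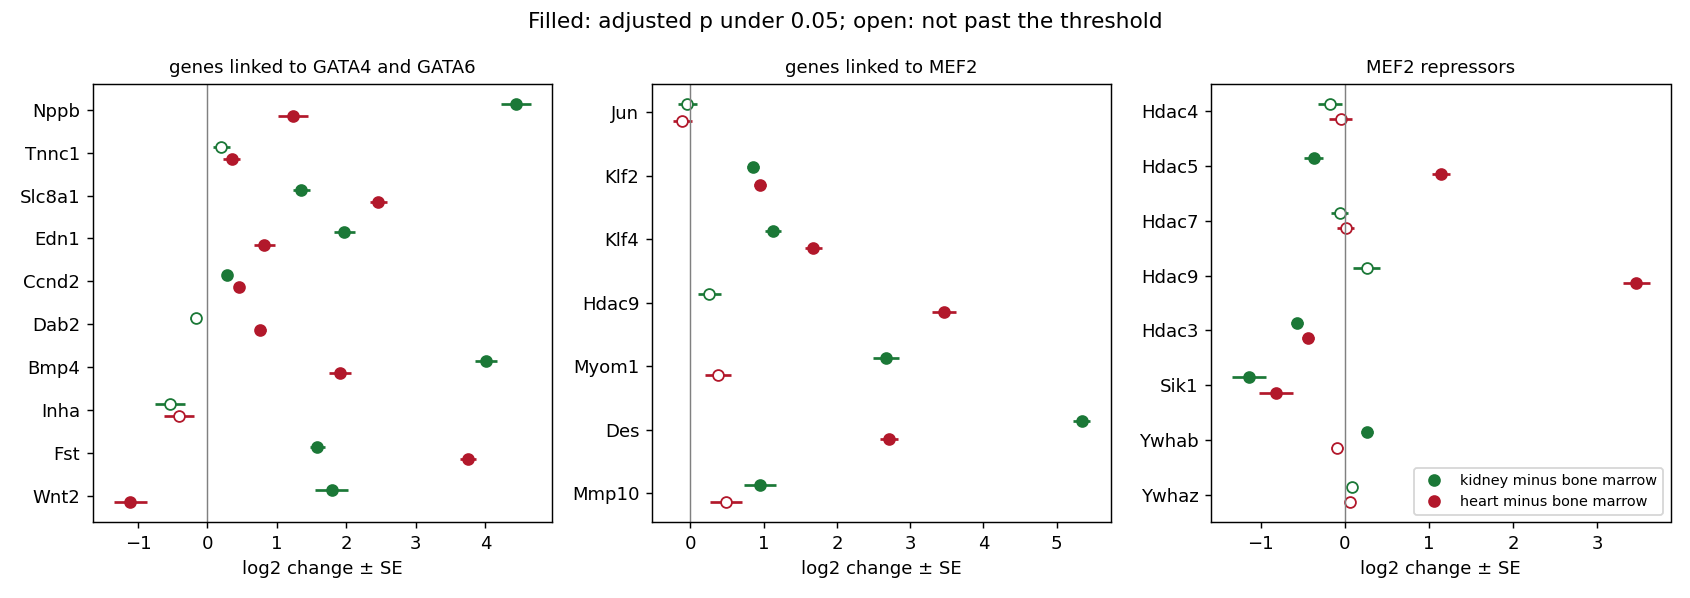
Log2 difference ± SE from limma for every tested gene linked to Gata4 and Gata6, linked to MEF2, or repressing MEF2, 1 row per gene, with kidney minus bone marrow above heart minus bone marrow and filled points for calls at an adjusted p under 0.05. Nppb, Slc8a1, Bmp4, Des and Klf4 lie to the right of 0 in both comparisons. Hdac9 and Hdac5 are called higher in heart cells, Hdac9 having passed the filter through heart cells alone. Points of tissues without detected signal, such as Hdac9 in kidney, are fitted values.

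Genes with the most similar pattern over the 12 arrays were sought by the root mean square difference of centred log2 intensities. For Mef2c the nearest were Gal3st2 (0.222), Ces2g (0.226) and Gm9780 (0.283), for Gata3 they were Igsf11 (0.266), Kprp (0.268) and Galnt18 (0.274), and for Gata6 they were Bicd2 (0.123), Sytl2 (0.127) and Gadd45g (0.139). The 12 arrays fall into 3 tissues, so these are not independent points, and the values are a description.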

How the data were processed

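Per the file headers, the deposited raw table holds non-normalized probe intensity for 12 arrays with, beside each, a detection fraction headed as a p-value that rises with the signal. The authors' second deposited table holds processed intensity, and lumi is named in the submitters' processing notes. It was used only as an alternative. Background correction and quantile normalization (neqc in limma 3.58.1, R 4.3.3, offset 16, detection p-values) were followed by log2. Entries with a detection fraction above 0.95 on at least 4 arrays were kept (20649). A linear model held 1 mean for each tissue over the 12 arrays together (limma's lmFit and trended eBayes), with 3 contrasts, an F test and Benjamini-Hochberg adjustment over all kept entries, threshold 0.05, two-sided. The number of arrays limits the precision. The procedure was tested on simulated data.

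Entries sharing an identifier were kept apart. A gene stood as its kept entry with the highest mean. Symbols come from the platform annotation, in which 26385 identifiers have 1 symbol and 18 have several. All members and any gene of the lists could be named. The members and lists were chosen with earlier results of these data known. Alternatives varied background, offset, normalization, filter, gene summary, shared identifiers, block and single arrays. Same-numbered samples did not deviate together (correlations of -0.18 to 0.123).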

Additional observations from a re-analysis of the deposited data

Results flagged for a closer look

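Among 30 groups of 4 arrays, 2 had an array far from the other 3 by Dixon's ratio, and chance gives about 1 in 20. The brighter Gata6 entry had a log2 intensity of 11.76 on kidney replicate 1, against 11.61 to 11.63 on the other kidney arrays. The brighter Mef2b entry had 10.59 on heart replicate 3, against 10.19 to 10.25 on the other heart arrays. Leaving out either array changed no call of its own entry.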

How the results depend on the processing

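Under 11 alternatives other than leaving out an array, 278 of 288 recomputed log2 differences kept their direction and side of the threshold, 8 lost a call and 2 changed sign. Leaving out 1 array kept 336 of 360, with 18 calls lost, 1 gained and 5 changes of sign. None of the 18 called differences changed sign under any alternative run. With probes detected on all 12 arrays, only 3 members were tested, so the F test called 3, heart minus bone marrow 2 higher and 0 lower, kidney minus bone marrow 1 higher, and kidney minus heart 1 higher and 2 lower. The 1 lower call of heart minus bone marrow, Gata4, became 0 with median scaling, no background correction, no detection filter and a fit of only the 2 tissues, and 0 to 1 when single arrays were left out. Kidney minus bone marrow had 0 to 1 lower when single arrays were left out. At a detection fraction of 0.99, 5 entries were detected on all 4 kidney arrays. Signs changed for uncalled values: Mef2b kidney minus bone marrow was -0.04 as a mean of its entries, the dimmer Mef2b entry in heart minus bone marrow was 0.03 with median scaling and -0.26 to 0.16 over single arrays left out, and in kidney minus bone marrow -0.39 to 0.04, Gata4 kidney minus heart ran from -0.01 to 0.1, and Mef2d ran from -0.36 to 0.04 in heart minus bone marrow and from -0.09 to 0.25 in kidney minus bone marrow. The replicate block lost 1 call, the dimmer Gata6 entry in kidney minus heart (0.46, adjusted p = 0.0589), and the numbers did not pair the samples. One alternative, entries whose identifier occurs once, was chosen after seeing the data. The cause of these changes was not tested, and values near the detection limit are limited by signal over background.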
